A study of Mus musculus with 18 samples.

Results

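The macrophage and myeloid markers described here are 10 listed genes, Lyz2, Cd74, Adgre1, Cd68, Csf1r, Mpeg1, Trem2, Lgals3, S100a8 and S100a9, out of 33440 genes quantified. The rule names them and uses no measured value, but it was written with earlier results of these data known. Their reads were followed in 12 TRAP libraries of epididymal white adipose tissue (eWAT) and in 6 libraries of SVF-derived adipocytes, all from C57BL/6 mice. TRAP (translating ribosome affinity purification) pulls down a GFP-tagged ribosomal protein together with the RNA being translated on it, and in Ad-NuTRAP mice the tag is made in cells with adiponectin promoter-driven Cre, that is, in adipocytes. The WT group (6 libraries) came from Ad-NuTRAP mice and the FI3KO group (6 libraries) from FI3KO-Ad-NuTRAP mice, in which the same Cre also deletes Irf3 in adipocytes, so that macrophages of both groups keep the gene. Both groups had been fed HFD for 8 weeks at thermoneutrality. The study's methods give males 8 weeks old at the start for mice kept on HFD for longer, and do not say whether this holds for the TRAP mice. The cultured cells were grown from the inguinal SVF of mice with the IRF3-2D allele, a constitutively active IRF3 that Cre switches on. Those given AAV-GFP are called WT (3 libraries) and those given AAV-GFP-Cre FI3OE (3 libraries), so that these groups differ in Cre as well as in active IRF3. SVF is a mixture of cells from which adipocytes are differentiated, and no step of the culture selected cells by a ribosomal tag.

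Macrophages enter adipose tissue in obesity, take up lipid and present antigen, and they can be numerous in eWAT on HFD. Lyz2 (lysozyme), Cd68 (a lysosomal membrane protein), Adgre1 (the F4/80 antigen) and Mpeg1 (perforin-2) are used to mark macrophages. Csf1r is the receptor for the growth factor CSF1, and Trem2 is a lipid-sensing receptor of lipid-associated macrophages. Cd74 is the invariant chain of MHC class II, Lgals3 is a galectin that macrophages and other cells make, and S100a8 and S100a9 form calprotectin, the most abundant cytosolic protein of neutrophils.

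The libraries held between 25259869 and 40490283 reads in FI3KO TRAP, 25729179 to 37933320 in WT TRAP, 23659055 to 36932452 in FI3OE and 21541334 to 25403517 in WT SVF-derived adipocytes. An Irf3 transcript, picked with earlier results of these data known, had 0 reads in the 6 FI3KO libraries and 164 to 388 in each WT TRAP library, while Irf3 summed over its transcripts was 12.4 to 18.8 CPM in FI3KO and 17.2 to 23.2 CPM in WT. Replicates 1-2 and 3-6 of the TRAP libraries are described separately because an earlier examination of these data had found them to differ, and no label names a batch. WT replicates 1 and 2 were closer to each other (chi-square per gene 2.57) than any other pair of WT TRAP libraries (9.14 to 146), although they differed by more than sampling noise and were kept as separate samples. Whether they share a source is not given, and if they did, the WT arm of replicates 1-2 would be 1 sample in every test of that set and in the interaction. Averaged as 1 library, they left 8 members lower past both cutoffs over all TRAP libraries, Csf1r among them (adjusted p = 0.0423). FI3KO replicates 1 and 2 stood apart by markers of epididymal epithelium, whose summed level was 1.39 and 1.48 CPM (the reads of a gene scaled to a common library total) there and at most 0.299 CPM in the other 10 TRAP libraries. All p-values measure the spread between libraries, which the labels call biological replicates.

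Most members were lower in FI3KO than in WT eWAT TRAP RNA. Over all 12 libraries 8 of the 10 members passed edgeR's filter on low counts, and 7 of these 8 were lower at an adjusted p of 0.05 or less, against 18.3% of the 13624 genes tested. With the fold-change cutoff (an effect of 1 log2 unit or more) 6 were lower, against 4.87% of genes, and 0 were higher by either rule, against 19.1% and 1.74%. The median log2 fold change of the 8 members was -1.73, and that of all genes tested 0.02. Trem2 and S100a8 passed the filter through the WT libraries, which favours a lower call for them. In RNA pulled down from tissue, fewer cells of a type, less RNA per cell and less carry-over into the pull-down cannot be told apart. Nor can RNA of adipocytes and RNA of other cells.

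Among the markers of macrophage identity, Lyz2 (chr10:117277331-117282321 of GRCm38, minus strand) ranged from 9.43 to 24.7 CPM in WT (median 16.6) and from 2.86 to 9.48 CPM in FI3KO (median 3.98). Only the highest FI3KO library, replicate 2, reached into the WT range. FI3KO differed from WT by -1.60 on the log2 scale (SE 0.323, standard error; adjusted p = 0.00246, Benjamini-Hochberg over all genes, as for every adjusted p here, from the quasi-likelihood test of edgeR). Lyz1, a close copy with which Lyz2 can share reads, had at most 0.506 CPM in any TRAP library. Mpeg1 (chr19:12460779-12465283) ranged from 3.69 to 13.4 CPM in WT (median 6.55) and from 1.14 to 3.90 CPM in FI3KO (median 1.44), a log2 fold change of -1.76 (SE 0.374, adjusted p = 0.00329). Adgre1 (chr17:57358691-57483527) ranged from 1.24 to 8.29 CPM in WT (median 4.41) and from 0.371 to 3.06 CPM in FI3KO (median 0.945). The groups overlapped, and the log2 fold change was -1.74 (SE 0.537, adjusted p = 0.0224). The call for Adgre1 did not hold without WT replicate 3 (-1.46, adjusted p = 0.0590) or with an offset for transcript length (-1.09, adjusted p = 0.163). Nor did it hold with the replicate number as a block (-1.83, adjusted p = 0.103). Csf1r ranged from 3.80 to 11.1 CPM in WT (median 8.56) and from 1.74 to 7.63 CPM in FI3KO (median 2.33). Its log2 fold change of -1.03 (SE 0.413) did not pass, with an adjusted p of 0.0651, and it passed without FI3KO replicate 1 (adjusted p = 0.0335) or 2 (0.0144) and without WT replicate 1 (0.0474) or 2 (0.0374). Hmgxb3, whose exons overlap those of Csf1r on the opposite strand, had 37.0 to 46.4 CPM in the TRAP libraries, and reads of the shared bases cannot be told apart without strand. Cd68 lay between 0.211 and 2.36 CPM in WT and between 0.0928 and 0.419 CPM in FI3KO, too few reads for the test over all 12 libraries.

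**Figure D1:**
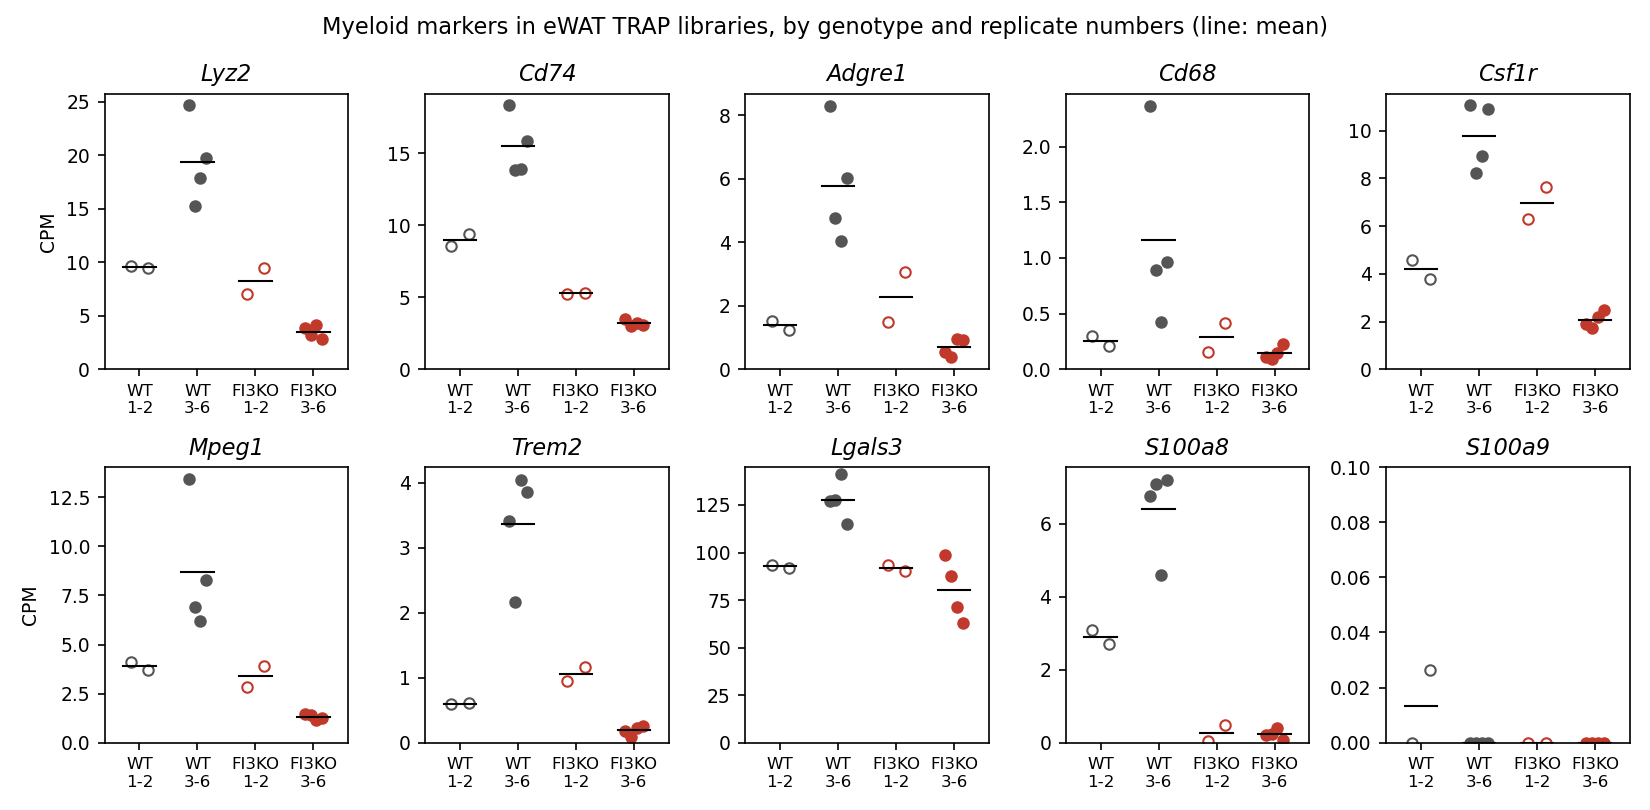
Level of each of the 10 members in CPM (linear axis from 0) in the eWAT TRAP libraries, each point a library and each line the mean of its replicate set, with WT in grey, FI3KO in red and replicates 1-2 as open points. In replicates 3-6 the WT points lie above the FI3KO points for every member except S100a9, which had 1 read in 1 WT library, while in replicates 1-2 only Cd74 and S100a8 are lower in FI3KO without overlap.

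Trem2, which marks the lipid-associated state, ranged from 0.597 to 4.04 CPM in WT (median 2.78) and from 0.0928 to 1.16 CPM in FI3KO (median 0.239). The log2 fold change was -2.29 (SE 0.653, adjusted p = 0.0154). This call did not hold with the replicate number as a block (-2.48, adjusted p = 0.0905). Lgals3 (chr14:47367751-47386160) was by far the most abundant member, with 92.1 to 141 CPM in WT (median 121) and 63.0 to 98.7 CPM in FI3KO (median 88.9). Its change was small, a log2 fold change of -0.42 (SE 0.127, adjusted p = 0.0211), and its call too was lost with that block (adjusted p = 0.0632).

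Cd74 and S100a8 were the members whose groups did not overlap over the 12 libraries, which held in the lower direction for 9.84% of all genes tested and in the higher direction for 5.39%. Cd74 ranged from 8.53 to 18.4 CPM in WT (median 13.9) and from 3.01 to 5.31 CPM in FI3KO (median 3.35), a log2 fold change of -1.72 (SE 0.216, adjusted p = 1.70e-04). S100a8 ranged from 2.72 to 7.20 CPM in WT (median 5.67), which is 93 to 246 reads, and from 0.0396 to 0.483 CPM in FI3KO (median 0.235), which is 1 to 16 reads. Its log2 fold change of -4.32 (SE 0.439, adjusted p = 6.59e-05) was the largest of the members tested. S100a9, whose protein pairs with that of S100a8, had 1 read in WT replicate 2 and 0 reads in the other 17 libraries of the study. In a TRAP library 3 reads, taken here as the limit that a count of 0 allows, come to 0.0741 to 0.119 CPM. The other neutrophil markers did not accompany S100a8. Of 9 further neutrophil genes, among them Ly6g, Retnlg, Camp and Ngp, 7 had at most 3 reads in every WT TRAP library and 8 in every FI3KO library, and their summed level was 0.262 to 0.751 CPM in WT and 0.0619 to 0.472 CPM in FI3KO.

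The promoters of the calprotectin pair are shown because these neighbouring genes of chromosome 3 differed so much in reads. Each stretch spans 300 bases around the annotated start, on the gene's own strand, from RefSeq (GRCm38.p6), with capitals marking GAGGAA or its reverse complement, the core letters bound by PU.1, the ETS factor of the myeloid lineage. S100a8 lies on the plus strand (chr3:90668821-90669120) and holds 2 matches. S100a9 lies on the minus strand (chr3:90695672-90695971) and holds none.
S100a8: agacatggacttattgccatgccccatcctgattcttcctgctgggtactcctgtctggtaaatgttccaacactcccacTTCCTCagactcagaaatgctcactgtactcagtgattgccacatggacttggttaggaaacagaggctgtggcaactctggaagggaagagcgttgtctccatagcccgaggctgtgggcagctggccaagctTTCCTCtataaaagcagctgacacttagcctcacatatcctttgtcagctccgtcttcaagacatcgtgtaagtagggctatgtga
S100a9: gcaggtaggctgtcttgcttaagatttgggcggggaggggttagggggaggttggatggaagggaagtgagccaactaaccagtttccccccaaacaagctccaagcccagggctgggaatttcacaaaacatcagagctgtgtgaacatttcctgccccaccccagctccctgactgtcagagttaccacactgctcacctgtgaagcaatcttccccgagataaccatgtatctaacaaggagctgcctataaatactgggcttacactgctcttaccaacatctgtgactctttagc
Both hold TATAAA, which 13.6% of 32851 promoters of this length do on either strand. GAGGAA was found on either strand in 28.3% of these promoters. Of the 7 members with a promoter sequence, 3 held it, and the others were Cd68 (chr11:69666121-69666420, minus strand) with 2 matches and Trem2 (chr17:48346151-48346450, plus strand) with 1. These are shown because they hold the motif. Lyz2, Mpeg1, Lgals3 and S100a9 hold no match.
Cd68: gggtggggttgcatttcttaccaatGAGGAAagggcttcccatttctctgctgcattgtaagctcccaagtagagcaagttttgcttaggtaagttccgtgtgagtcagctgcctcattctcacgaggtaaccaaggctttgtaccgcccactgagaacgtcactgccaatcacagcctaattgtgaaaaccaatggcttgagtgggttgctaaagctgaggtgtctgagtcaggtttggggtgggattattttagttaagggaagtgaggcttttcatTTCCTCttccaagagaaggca
Trem2: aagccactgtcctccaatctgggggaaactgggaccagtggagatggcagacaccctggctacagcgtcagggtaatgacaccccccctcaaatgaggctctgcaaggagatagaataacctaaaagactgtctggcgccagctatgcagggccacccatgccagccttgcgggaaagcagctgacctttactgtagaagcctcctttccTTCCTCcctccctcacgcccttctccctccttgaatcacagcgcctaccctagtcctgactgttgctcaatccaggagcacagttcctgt
A motif of interferon regulatory factors, GAAA repeated after any 2 bases on either strand, was in 0 of the 7 and in 3.44% of all promoters. A match is a description of letters and not a binding site.

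The difference between FI3KO and WT was larger in replicates 3-6 for the members whose interaction passed, given below. In replicates 3-6, 9 members passed the filter and all 9 were lower at an adjusted p of 0.05 or less, against 24.8% of 13692 genes, and 8 of them past the fold-change cutoff too, against 9.6%. In the higher direction 0 members passed, against 25.7% by adjusted p and 4.05% with the cutoff. The median log2 fold change of these members was -2.67, and that of all genes tested 0.01. All 9 had WT and FI3KO libraries that did not overlap, which in this set of 4 against 4 libraries held for 25.6% of genes in the lower direction and 20.5% in the higher. Of the 9, Cd68, Trem2 and S100a8 passed the filter through the WT libraries, and the other 6 were detected in both groups. Adgre1, 1 of these 6, had only 12 to 39 reads in these FI3KO libraries.

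In replicates 3-6 Lyz2 had 24.7, 15.3, 17.8 and 19.8 CPM in WT and 3.81, 3.24, 4.15 and 2.86 CPM in FI3KO. The log2 fold change was -2.41 (SE 0.158, adjusted p = 1.75e-06). Cd74 had 18.4, 13.8, 13.9 and 15.9 CPM in WT and 3.52, 3.01, 3.19 and 3.07 CPM in FI3KO, a log2 fold change of -2.23 (SE 0.106, adjusted p = 3.10e-07). For both genes the lowest WT library was several-fold above the highest FI3KO library. Trem2 had 3.41, 2.16, 4.04 and 3.85 CPM in WT and 0.185, 0.0928, 0.222 and 0.256 CPM in FI3KO, a log2 fold change of -4.07 (SE 0.321, adjusted p = 6.08e-06). Adgre1 fell by 2.96 on the log2 scale (adjusted p = 4.04e-05), Mpeg1 fell by 2.67 (adjusted p = 1.30e-05) and Csf1r fell by 2.18 (adjusted p = 2.26e-06). Cd68, which had the fewest reads of the 9 members tested here, had 2.36, 0.893, 0.428 and 0.962 CPM in WT and 0.111, 0.0928, 0.148 and 0.224 CPM in FI3KO. Its log2 fold change was -2.93 (SE 0.548, adjusted p = 0.00140). S100a8 fell by 4.67 on the log2 scale (SE 0.331, adjusted p = 2.96e-06), and Lgals3 by 0.63 (SE 0.124, adjusted p = 0.00183).

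In replicates 1-2, with 2 libraries in each group, the macrophage members did not follow. By edgeR's quasi-likelihood test 0 of 8 members passed at an adjusted p of 0.05, against 1.98% of 14040 genes lower and 1.58% higher (0.527% and 0.833% with the fold-change cutoff), and at an unadjusted p of 0.05 there were 2 lower (Cd74, S100a8) and 2 higher (Csf1r, Trem2). The DESeq2 Wald test called Cd74 and S100a8 lower and Csf1r higher at an adjusted p of 0.05. Lyz2 had 9.61 and 9.43 CPM in WT and 7.02 and 9.48 CPM in FI3KO, a log2 fold change of -0.15 (SE 0.160, adjusted p = 0.566). Csf1r had 4.58 and 3.80 CPM in WT and 6.29 and 7.63 CPM in FI3KO, with both FI3KO libraries above both WT libraries and a log2 fold change of 0.80 (SE 0.171, adjusted p = 0.0628). Trem2 had 0.597 and 0.606 CPM in WT and 0.950 and 1.16 CPM in FI3KO, a log2 fold change of 0.87 (SE 0.314, adjusted p = 0.146). In TPM, which allows for transcript length, Trem2 overlapped, with 1.19 and 0.911 in WT and 0.741 and 1.41 in FI3KO. Groups of 2 libraries did not overlap, in the higher direction, for 27.4% of genes, and in the lower direction for 37.4%. Adgre1 had a log2 fold change of 0.79 (adjusted p = 0.215), which was 1.18 without FI3KO replicate 1 and 0.19 without FI3KO replicate 2. In TPM Adgre1 did not overlap, with 0.867 and 0.677 in WT and 2.22 and 2.96 in FI3KO, a ratio of 3.36 between the means beside 1.65 in CPM. The log2 fold change of Csf1r ranged from 0.66 to 0.93 when single libraries were left out. The log2 fold change of Mpeg1 was -0.14 (adjusted p = 0.660) and that of Lgals3 0.05 (adjusted p = 0.682). The median of the 8 members was -0.05, beside 0.03 for all genes.

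In replicates 1-2 the FI3KO libraries of Cd74 and S100a8 were below the WT libraries. S100a8, with 1 and 15 reads in FI3KO, passed the filter in this set through the WT libraries. It had 3.09 and 2.72 CPM in WT and 0.0396 and 0.483 CPM in FI3KO, a log2 fold change of -3.31 (SE 0.629, adjusted p = 0.0530). This value was -2.55 without FI3KO replicate 1 and -5.99 without FI3KO replicate 2. Cd74 had 8.53 and 9.36 CPM in WT and 5.23 and 5.31 CPM in FI3KO, a log2 fold change of -0.70 (SE 0.134, adjusted p = 0.0534). This value ranged from -0.77 to -0.64 when single libraries were left out. Both lay just above the threshold in this set of 4 libraries.

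**Figure D2:**
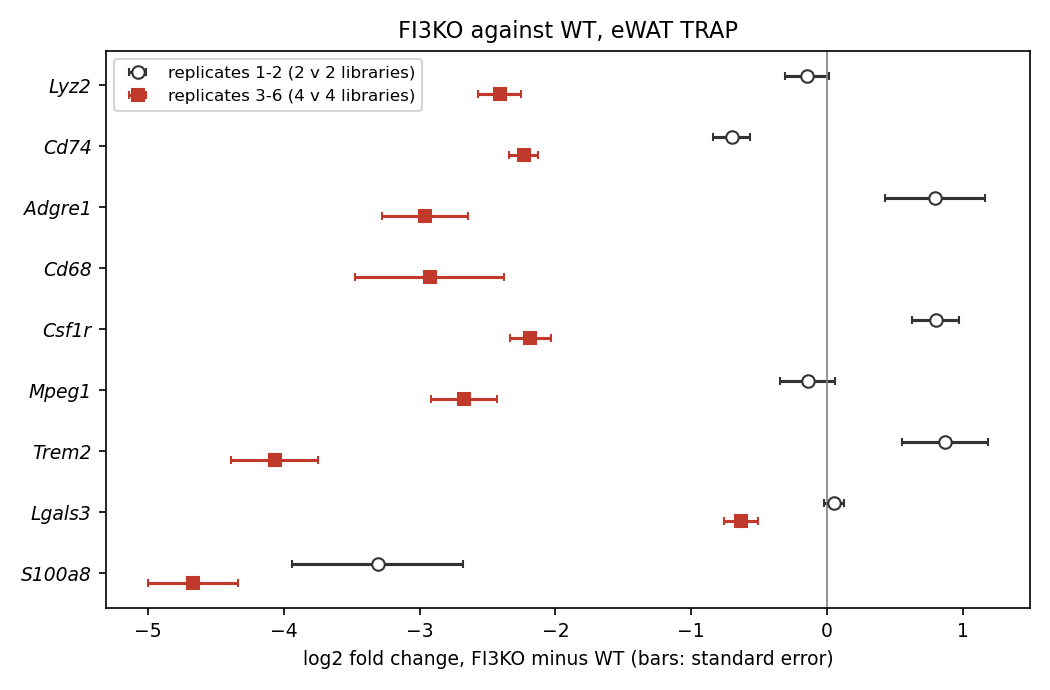
Log2 fold change of FI3KO against WT in eWAT TRAP RNA for the members with enough reads for a test, with bars for the standard error, in replicates 1-2 (open circles) and replicates 3-6 (filled squares). The squares lie between -0.63 for Lgals3 and -4.67 for S100a8, whereas the circles lie near or above 0 except for Cd74 (-0.70) and S100a8 (-3.31).

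The difference between the sets was itself tested, as an interaction of genotype and replicate set. The sets came from an earlier examination of these same libraries, so that the p-values here and within each genotype are not independent of that choice. Of 9 members tested, 8 had a more negative effect in replicates 3-6 at an adjusted p of 0.05 or less, against 11.9% of 14978 genes. With the fold-change cutoff 7 did, against 7.98%, and 0 had a less negative one, against 12.9% (2.98% with the cutoff). The log2 difference was -4.89 for Trem2 (SE 0.494, adjusted p = 5.36e-05), -3.71 for Adgre1 (adjusted p = 6.91e-04), -2.94 for Csf1r (adjusted p = 2.00e-05) and -2.22 for Lyz2 (adjusted p = 1.39e-04). That of S100a8 was -1.31 (SE 0.789) and did not pass, with an adjusted p of 0.241. It passed without FI3KO replicate 1 (-2.08, adjusted p = 0.0476) and was 1.36 without FI3KO replicate 2 (adjusted p = 0.457).

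Both genotypes contributed to this difference. Within WT, 7 of 9 members were higher in replicates 3-6 than in replicates 1-2, against 7.85% of genes (2.64% with the fold-change cutoff), and within FI3KO 6 of 9 were lower, against 8.47% (5.58% with it). With the cutoff 5 members were higher within WT and 5 lower within FI3KO. Cd68 passed the filter through WT replicates 3-6, where it is high, which favours its calls within WT and in the interaction. In the opposite directions 0 members passed, against 9.75% of genes within WT (1.7% with the cutoff) and 5.67% within FI3KO (0.227% with it). Trem2 was 2.41 log2 units higher in WT replicates 3-6 (SE 0.343, adjusted p = 5.53e-04) and 2.48 lower in FI3KO replicates 3-6 (log2 fold change -2.48, standard error 0.356, adjusted p = 0.00158). Csf1r rose by 1.16 within WT (adjusted p = 9.05e-04) and fell by 1.78 within FI3KO (adjusted p = 2.23e-04). Lyz2 rose by 0.96 within WT (adjusted p = 0.00395) and fell by 1.26 within FI3KO (adjusted p = 0.00199). Cd68 rose within WT by 2.12 (adjusted p = 0.0451), and within FI3KO its value of -1.03 did not pass (adjusted p = 0.342). Lgals3 (0.40 within WT, -0.24 within FI3KO) and S100a8 (1.08 within WT, -0.23 within FI3KO) did not pass in either genotype. Replicate numbers are labels without dates, and whether mice, tissue handling or library preparation differed between the sets was not tested.

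**Figure D3:**
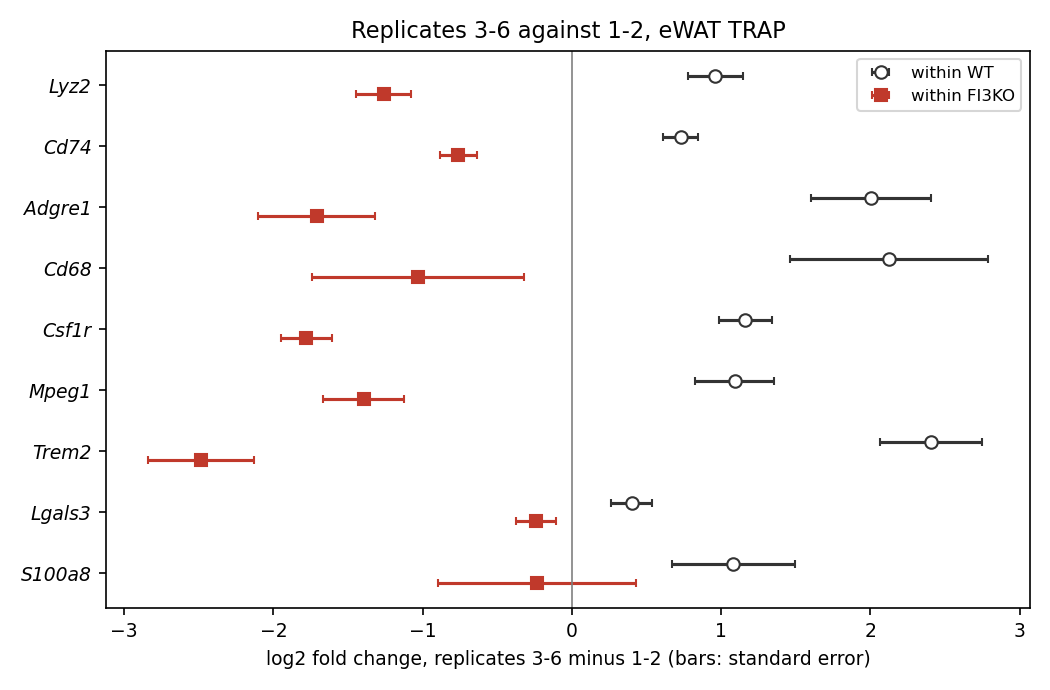
Log2 fold change of replicates 3-6 against replicates 1-2 for 9 members, within WT (open circles) and within FI3KO (filled squares), with bars for the standard error. All circles lie above 0 and all squares below it, with 2.41 and -2.48 for Trem2 and 0.40 and -0.24 for Lgals3, and the bar of S100a8 within FI3KO crosses 0.

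The members' pattern over the 12 TRAP libraries was summarised by their mean. The mean centred log2 CPM of the 8 members tested was highest in WT replicate 3 (1.58) and lowest in FI3KO replicate 4 (-1.49), and FI3KO replicate 2 (0.12) lay between WT replicates 1 and 2 (0.18 and 0.09). Lyz2 and Mpeg1 stayed closest to this mean profile, with root mean square differences of 0.16 and 0.23 log2 units, followed by Cd74 (0.26), Csf1r (0.42), Adgre1 (0.43) and Trem2 (0.61). Lgals3 (0.86), which moved less, and S100a8 (1.37), which moved more, stayed farthest from it. Each member is part of the mean, so that its closeness is in part built in. Among 10907 other genes tested, all averaging 1 log2 CPM or more, whose median difference from the profile was 1.12, less than that of S100a8, the 10 closest were 1700047G03Rik (0.16), Tfpi2 (0.17), Elf4 (0.19), Reps2 (0.19), Sept9 (0.19), Tinagl1 (0.21), Frmd4a (0.21), Slc37a2 (0.21), Duoxa1 (0.22) and Sept8 (0.22). None of these is on any marker list used here. 1700047G03Rik and Sept9 had more reads than Lyz2, with a mean log2 CPM of 6.53 and 6.38 beside 3.08, values that do not allow for transcript length.

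Other myeloid genes were tested by list, and their counts stand beside the shares of all genes that were lower, 18.3% over all libraries, 24.8% in replicates 3-6 and 1.98% in replicates 1-2. Of 14 further macrophage identity genes 11 were tested over all 12 libraries and 11 were lower, 12 of 12 tested were lower in replicates 3-6, and 0 of 11 passed in replicates 1-2. In all these lists a gene with few reads in FI3KO can pass the filter only through the WT libraries, which favours a lower call. Fcgr1 of this list had at most 3 reads in every FI3KO library and in WT replicates 1-2. The median log2 fold change of the macrophage identity genes tested was -1.64 over all libraries, -2.60 in replicates 3-6 and 0.08 in replicates 1-2. Ptprc (CD45, present on all leukocytes) lay between 6.01 and 15.6 CPM in WT and between 1.82 and 6.89 CPM in FI3KO and fell by 1.64 on the log2 scale (SE 0.372, adjusted p = 0.00469). Ctss (cathepsin S) had a log2 fold change of -2.10 (adjusted p = 0.00396) and Laptm5, a lysosomal protein of blood cells, of -1.72 (adjusted p = 0.00520). Mertk, a receptor for the uptake of dead cells, had the most reads of this list, without allowance for transcript length, at 31.8 ± 6.13 CPM in WT (SD, n = 6). It fell by 0.46 only (adjusted p = 0.00798).

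Of the lipid-associated macrophage genes 8 of 9 tested were lower over all libraries, with a median of -1.91. Gpnmb fell by 2.69 (adjusted p = 0.0139), while Ctsd (cathepsin D), at 1.56e+03 to 1.97e+03 CPM in WT and 1.26e+03 to 1.65e+03 CPM in FI3KO, fell by 0.26 (adjusted p = 0.0243) and Lipa (lysosomal acid lipase) by 0.30 (adjusted p = 0.00788). Acp5, an acid phosphatase, was the exception, with a log2 fold change of 0.33 over all libraries (adjusted p = 0.196) and a rise of 0.71 in replicates 3-6 (adjusted p = 0.00685). Itgax (CD11c) was the only gene of this list to pass in replicates 1-2, with a log2 fold change of -1.17 (adjusted p = 0.0228).

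Of the resident macrophage genes 3 of 6 tested were lower over all libraries and 5 of 6 in replicates 3-6, with 0 of 6 past the threshold in replicates 1-2. Mrc1, the mannose receptor, had a log2 fold change of -1.28 over all libraries (adjusted p = 0.0212), -2.38 in replicates 3-6 (adjusted p = 4.86e-07) and 0.50 in replicates 1-2 (adjusted p = 0.112). Of the MHC class II and dendritic cell genes 6 of 6 tested were lower over all libraries and in replicates 3-6, and 1 of 6 in replicates 1-2. H2-DMb1, which helps to load peptides on MHC class II, was at 36.1 ± 16.5 CPM in WT and 5.37 ± 2.71 CPM in FI3KO (SD, n = 6 each), a difference of -2.69 on the log2 scale (SE 0.371, adjusted p = 2.84e-04), and it also passed in replicates 1-2 (-0.91, adjusted p = 0.0376). H2-Ab1, a chain of MHC class II itself, fell by 1.56 over all libraries (adjusted p = 0.00283). Of the monocyte genes 1 of 6 was tested over all libraries, Ccr2 (the receptor for CCL2), which fell by 1.82 (adjusted p = 5.53e-04).

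Of 11 genes for myeloid growth factors and attractants 4 were tested. Ccl2 and Ccl7, which attract monocytes through CCR2, had log2 fold changes of -4.14 (SE 0.553, adjusted p = 2.38e-04) and -3.40 (SE 0.446, adjusted p = 2.15e-04). They too differed by replicate set, with -5.07 and -4.27 in replicates 3-6 (adjusted p = 1.76e-07 and 4.71e-08) and -1.38 and -1.16 in replicates 1-2 (adjusted p = 0.0212 and 0.0536), and the interaction was -3.66 for Ccl2 (adjusted p = 3.50e-05) and -3.06 for Ccl7 (adjusted p = 2.31e-05). Csf1 and Il34, the ligands of CSF1R, had log2 fold changes of -0.10 (adjusted p = 0.671) and 0.10 (adjusted p = 0.493).

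Markers of other cell types moved with some libraries. The summed level of the members without Lgals3 was 31.1 to 32.3 CPM in WT replicates 1-2, 59.2 to 88.4 CPM in WT replicates 3-6, at most 31.4 CPM in FI3KO replicates 1-2 and 10.2 to 12.4 CPM in FI3KO replicates 3-6. Endothelial markers, 6 of 6 detected, summed to 50.2 and 91.5 CPM in FI3KO replicates 1-2 and to 19.6 to 47.6 CPM in the other 10 TRAP libraries. Over all 12 libraries 0 of 5 endothelial, 0 of 5 mesothelial and 0 of 5 erythroid genes tested passed in edgeR's quasi-likelihood test in either direction. The interaction with replicate set was lower for 3 of 6 endothelial, 4 of 5 erythroid, 1 of 7 mesothelial and 4 of 7 fibroblast and progenitor genes tested, and within FI3KO 5 of 6 endothelial and 2 of 5 erythroid genes were lower in replicates 3-6, against 11.9% of all genes in the interaction and 8.47% within FI3KO. The interaction was higher for 1 of the 7 fibroblast and progenitor genes and for 0 genes of the other lists just named, against 12.9% of all genes. Fibroblast and progenitor genes summed to a median of 1059 CPM in WT replicates 1-2, 2000.1 CPM in WT replicates 3-6, 1108 CPM in FI3KO replicates 1-2 and 833 CPM in FI3KO replicates 3-6, by sum the same order of WT sets and of FI3KO sets as for the members. Gene by gene, within WT 1 of 7 was higher in replicates 3-6 and 1 lower, against 7.85% and 9.75% of all genes. Within FI3KO 1 of 7 was higher in replicates 3-6 and 3 lower, against 5.67% and 8.47%. In FI3KO against WT over all 12 libraries, 2 of the 7 genes were lower, among them Col1a1 (-1.82, adjusted p = 0.00430), and 2 were higher, among them Dcn (1.36, adjusted p = 0.00117). Of 15 adipocyte genes 6 were higher and 2 lower in FI3KO, against 19.1% of all genes higher and 18.3% lower. Their summed level had a median of 66207 CPM in WT replicates 1-2, 56315 CPM in WT replicates 3-6, 54676 CPM in FI3KO replicates 1-2 and 64600.0 CPM in FI3KO replicates 3-6, so that the sets lay in the opposite order to that of the members within each genotype. In replicates 3-6 alone 9 of the 15 were higher in FI3KO and 2 lower, against 25.7% and 24.8% of all genes, and the interaction was higher for 7 and lower for 1, against 12.9% and 11.9% of all genes. The part of these other cells in the members' values was not tested. Without FI3KO replicates 1 and 2, an alternative chosen after seeing the data, the log2 fold change of Lyz2 was -2.16 and that of Csf1r -1.89 (adjusted p = 9.18e-04).

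**Figure D4:**
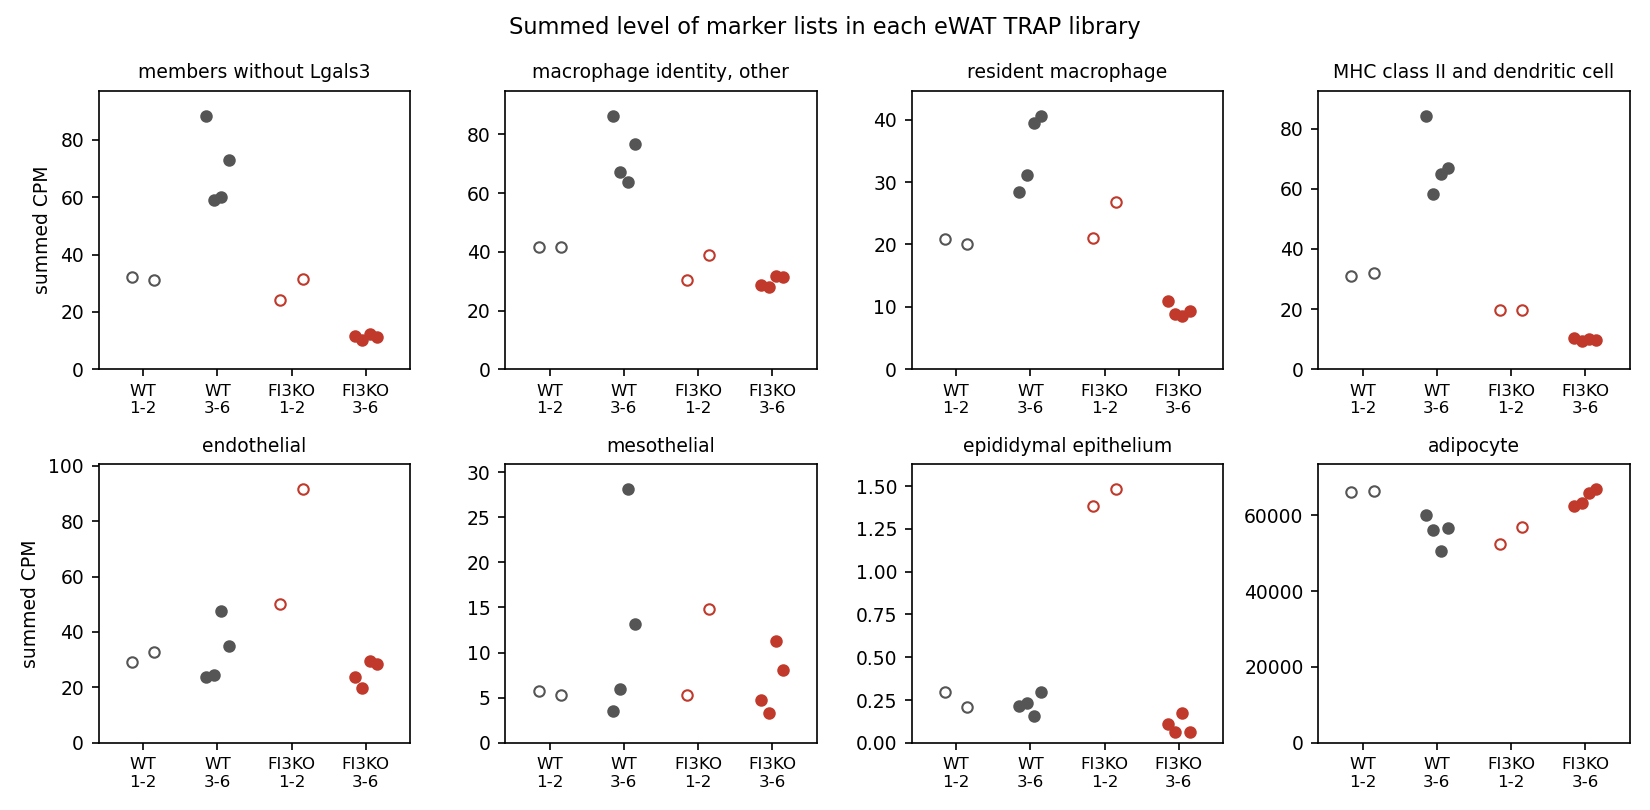
Summed level in CPM (linear axes from 0) of the members without Lgals3 and of 7 marker lists in each eWAT TRAP library, with WT in grey, FI3KO in red and replicates 1-2 as open points. The members without Lgals3, the resident macrophage and the MHC class II lists are lowest in the 4 libraries of FI3KO replicates 3-6, macrophage identity genes (27.9 to 31.7 CPM there) reach the level of FI3KO replicate 1 (30.4 CPM), and endothelial and epididymal markers are highest in FI3KO replicates 1-2 (50.2 and 91.5 CPM, and 1.39 and 1.48 CPM). The sum of macrophage identity genes includes Mertk, which has the most reads of that list and fell less than Ptprc, Ctss and Laptm5.

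Against adipocyte genes the members were at a higher level in the cultured cells than in the TRAP RNA. Levels of different genes are compared as TPM (a level per transcript length). The 9 members without Lgals3 summed to 0.0647% to 0.206% of the TPM of 15 adipocyte genes in WT TRAP libraries and to 0.0166% to 0.0521% in FI3KO TRAP libraries. In SVF-derived adipocytes the same share was 7.77% to 8.18% in WT and 8.89% to 9.27% in FI3OE. For the single pair of Lyz2 and Adipoq (adiponectin), Lyz2 TPM was 0.290% to 1.17% of Adipoq TPM in WT TRAP, 0.0785% to 0.325% in FI3KO TRAP, 91.8% to 98.8% in WT and 73.4% to 80.9% in FI3OE SVF-derived adipocytes. Lyz2 thus had nearly the level of Adipoq in the WT cultures. By mean TPM it ranked 78 among the 23848 genes above 0 there, and 5396 among 23403 in WT TRAP.

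In WT TRAP the order of mean TPM was Lgals3 (293 ± 46.5), Cd74 (31.4 ± 8.64), S100a8 (25.8 ± 10.8), Lyz2 (25.3 ± 8.91), Csf1r (4.82 ± 1.99), Adgre1 (3.46 ± 2.53), Trem2 (3.11 ± 1.87), Mpeg1 (2.81 ± 1.4), Cd68 (2.52 ± 2.54) and S100a9 (SD, n = 6). Lgals3 stood alone, the next 3 lay within their spread of each other, and so did the 5 from Csf1r to Cd68. This order pools both replicate sets. In WT replicates 1-2 alone Adgre1, at a mean of 0.772 TPM, lay below Mpeg1 (1.55), Trem2 (1.05) and Cd68 (0.821), and S100a8 (13.9) lay below Lyz2 (15.3). In the WT cultures the order was Lyz2, with 1.07e+03 to 1.13e+03 TPM, then Lgals3 (362 to 380), Cd68 (173 to 186), Adgre1 (120 to 130), Mpeg1 (83.9 to 88.2), Csf1r (78.5 to 83.4), Trem2 (77.3 to 81.5) and Cd74 (1.04 to 1.54), with both calprotectin genes at 0 reads. The ranges of Csf1r and Trem2 overlapped, and those of the other neighbours in this order did not meet. Cd74 and S100a8, high in the tissue order, were thus the lowest in culture besides S100a9, and H2-Aa, another chain of MHC class II, was at 0 reads in all 6 cultured libraries. Other macrophage genes were high in the WT cultures, with 436 ± 17.6 CPM for Mrc1, 374 ± 28.9 CPM for F13a1 and 255 ± 7.7 CPM for C1qb (SD, n = 3 each). The cultures are labelled adipocytes, and these markers show RNA of macrophage genes in them beside that of Adipoq, Plin1 and Fabp4. The tissue, depot and RNA isolation differ between the experiments, and their parts in these levels cannot be told apart.

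**Figure D5:**
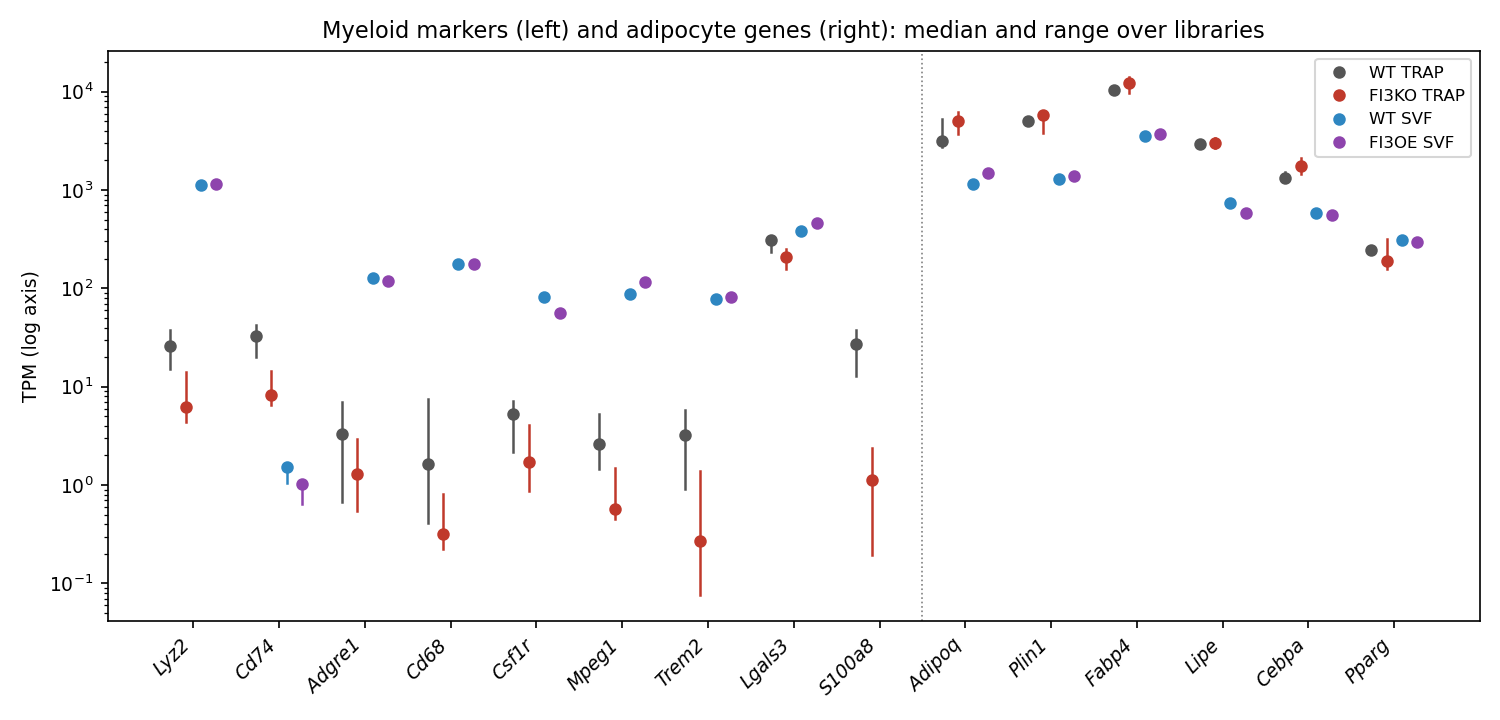
TPM on a log axis of 9 members and, right of the dotted line, 6 adipocyte genes in the 4 groups, each point the median and each line the range over the libraries of a group (6 for TRAP, 3 for SVF; a median of 0 is not drawn). Lyz2 lies at 91.8% to 98.8% of Adipoq in the WT cultures, 73.4% to 80.9% in FI3OE and 1.17% or less in TRAP libraries, and Cd74 lies below its TRAP levels, as does S100a8, whose median in the cultures is 0.

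In the cultured cells 4 members differed between FI3OE and WT, by less than 0.5 log2 units. Of 8 members tested 3 were higher in FI3OE and 1 lower at an adjusted p of 0.05 or less, against 20.2% and 16.8% of 16105 genes. With the fold-change cutoff 0 passed in edgeR's quasi-likelihood test and 0 in the DESeq2 Wald test, against 1.99% and 1.63%, and without it and at an unadjusted p of 0.05 there were 4 higher and 1 lower. The median log2 fold change of the 8 members was 0.10. Mpeg1 had 302, 315 and 342 CPM in FI3OE and 223, 234 and 235 CPM in WT, a log2 fold change of 0.49 (SE 0.0494, adjusted p = 1.41e-05). Lgals3 had 209, 210 and 225 CPM in FI3OE and 152, 168 and 168 CPM in WT, a log2 fold change of 0.42 (SE 0.0491, adjusted p = 4.73e-05). Trem2 rose by 0.21 (SE 0.0605, adjusted p = 0.0163), with 36.4, 37.4 and 40.9 CPM in FI3OE and 31.3, 33.7 and 34.9 CPM in WT. Its call did not hold without FI3OE replicate 2 (adjusted p = 0.0688), without WT replicate 2 (adjusted p = 0.0696) or with the transcript length offset (0.12, adjusted p = 0.311).

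Csf1r was the member that fell, with 111, 115 and 124 CPM in FI3OE and 157, 162 and 166 CPM in WT, a log2 fold change of -0.45 (SE 0.0470, adjusted p = 1.77e-05). The FI3OE and WT libraries of Mpeg1, Lgals3, Trem2 and Csf1r did not overlap, nor did those of Cd74, which in groups of 3 libraries held for 25.7% of genes in the lower and 24.1% in the higher direction. Lyz2 (0.10, adjusted p = 0.0598), Cd68 (0.10, adjusted p = 0.165), Adgre1 (-0.04, adjusted p = 0.502) and Cd74 (-0.72, adjusted p = 0.177, from 5 to 16 reads a library) did not pass. The call for Lyz2 depended on the setting, passing without FI3OE replicate 2 (adjusted p = 0.0488), with no filter (0.0451), with the replicate block (0.0369) and in the DESeq2 Wald test (0.0416). S100a8 had at most 3 reads in a cultured library and S100a9 had none, so that no fold is given.

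Other myeloid genes of the cultures changed in both directions, and their counts stand beside 20.2% of all genes higher and 16.8% lower. Of the resident macrophage genes 4 of 7 tested were lower in FI3OE, namely F13a1 (-1.11, adjusted p = 1.17e-07), Mrc1 (-0.87, adjusted p = 9.21e-08), Cbr2 (-0.61, adjusted p = 7.63e-07) and Cd163 (-0.38, adjusted p = 7.94e-04), and 1, Folr2, was higher (0.32, adjusted p = 1.69e-04). Of the lipid-associated genes 5 of 8 tested were higher and 0 lower, among them Spp1, osteopontin (0.93, adjusted p = 5.46e-08), and Ctsd (0.36, adjusted p = 3.74e-06). Both monocyte genes tested were higher, Plac8 by 1.92 (adjusted p = 1.08e-09) and Ly6c2 by 0.61 (adjusted p = 0.0362). Of 14 macrophage identity genes 6 were higher, 2 lower and 6 did not pass. Ccl2 rose by 1.51 (adjusted p = 2.09e-08), Ccl7 by 1.33 (adjusted p = 2.51e-08) and Csf1 by 0.44 (adjusted p = 2.64e-06). Side by side, in FI3KO TRAP and in FI3OE cultures, the log2 fold changes were -1.60 and 0.10 for Lyz2, -1.76 and 0.49 for Mpeg1, -0.42 and 0.42 for Lgals3, -2.29 and 0.21 for Trem2, -1.03 and -0.45 for Csf1r, -1.72 and -0.72 for Cd74 and -1.74 and -0.04 for Adgre1. The difference between these experiments was not tested.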

How the data were processed

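RNA was measured in 18 libraries. According to the study's methods, reads were trimmed with fastp and reads under 24 nt removed. Salmon 1.4.0 then estimated reads per transcript of GENCODE M24 (GRCm38), with correction for sequence and GC bias. The authors deposited per transcript the estimated count (expected counts, not normalized, not whole numbers) and TPM. Lengths deposited as effective length served only the length offset.

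Counts were summed per gene with GENCODE M21, which matched 117850 of 118733 transcripts, the other 883 kept as genes of their own, and rounded. Levels are CPM for 1 gene across libraries and TPM between genes. The depth of each group is given in the report. Genes with up to 3 reads in each library of a group count as undetected there, a limit for counting error alone.

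TRAP and SVF libraries were tested separately, using R 4.3.3 and edgeR 4.0.16 (filterByExpr, TMM, quasi-likelihood test, Benjamini-Hochberg adjustment over all genes tested), without covariates and with the study's cutoffs (adjusted p up to 0.05, effect of 1 log2 unit or more). The interaction and the contrasts within a genotype came from 1 fit of the 4 combinations of genotype and replicate set. Scripts were tested on simulated data. Alternatives were the Wald test of DESeq2 1.42.0, its size factors within edgeR, no filter, the replicate number as a block, libraries left out in turn, WT replicates 1 and 2 as 1 library, a transcript length offset, no fold cutoff, and TPM for list sums.

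The 10 members and all marker lists were chosen with earlier results of these data known. Named were the members, up to 4 genes of each list with the highest mean CPM over the 12 TRAP libraries, the 10 genes closest to the members' profile, and Irf3 as a check. Itgax, C1qb, Cd163, Folr2, Spp1, Plac8, the neutrophil genes at the detection limit, the motifs and the order of promoters shown were chosen after values were seen, as were the alternatives without FI3KO replicates 1 and 2 and without the fold cutoff in either replicate set. Clec7a was not analysed here.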

Additional observations from a re-analysis of the deposited data

Results flagged for a closer look

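In WT TRAP libraries Cd68 was far higher in replicate 3, at 2.36 CPM, than in the other 5, which lay between 0.211 and 0.962 CPM. The gap was 0.651 of the group's whole range. Of 18 groups of libraries examined in this way 1 was found, and chance gives about 0.9.

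For 8 members the effect of FI3KO differed between replicates 3-6 and 1-2 in edgeR's interaction term. These sets came from an earlier examination of the same libraries. The log2 difference was -2.22 for Lyz2, -1.49 for Cd74, -3.71 for Adgre1, -3.16 for Cd68, -2.94 for Csf1r, -2.49 for Mpeg1, -4.89 for Trem2 and -0.64 for Lgals3, each negative because the effect was lower in replicates 3-6. Cd68 passed the filter only through WT replicates 3-6, and its log2 difference ranged from -3.64 to -2.30 when single libraries were left out. Its difference had an adjusted p of 0.0329 and that of Lgals3 was 0.0304, and both lost the threshold in single leave-outs (Cd68 at most 0.216, Lgals3 at most 0.110). FI3KO replicates 1 and 2 also held the most epididymal and endothelial marker RNA, and WT replicates 1 and 2 were the closest pair of libraries. The part of either in these differences was not tested.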

How the results depend on the processing

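Over all 12 TRAP libraries 6 members were lower past both cutoffs, 5 to 8 when single libraries were left out and 4 to 8 under the other alternatives, and in replicates 3-6 the count was 8 in the main test, 8 in every leave-out and 8 to 9 otherwise. Calls that depended on the setting over all libraries were those of Adgre1, Csf1r, Trem2 and Lgals3, and Cd68, not tested in the main comparison, was called in some alternatives, among them no filter (7 members). In replicates 1-2 the count lower past both cutoffs was 0 and became 1 with no filter, with the DESeq2 Wald test and with the replicate block, 1 to 1 when libraries were left out, and 0 to 1 for members higher. There, without FI3KO replicate 1, the sign turned for Lyz2 (range over leave-outs -0.38 to 0.015), Mpeg1 (-0.39 to 0.025) and Lgals3 (-0.013 to 0.075). The interaction of S100a8 ranged from -2.08 to 1.36 over leave-outs and turned without FI3KO replicate 2, which left FI3KO replicate 1 with 1 read. With single libraries left out of a set of 2, the lone library was assumed to vary like the others. The cause of these changes was not tested. In SVF-derived adipocytes the counts without the fold cutoff were 1 lower and 3 higher. The summed level of adipocyte genes differed by 0.05 (log2, FI3KO minus WT) in CPM and by 0.25 in TPM. With the replicate number as a block, the count over all TRAP libraries was 4, and Adgre1 (adjusted p = 0.103), Trem2 (0.0905) and Lgals3 (0.0632) lost the call. Same-numbered libraries correlated between -0.46 and 0.09 in TRAP, and 1 of 6 correlated best with its own number. The check gave no sign of pairing by number but cannot exclude it. Opposite shifts of the replicate sets in WT and FI3KO, as for the members, can lower these correlations. Reads were few for Cd68, Trem2 and S100a8 in FI3KO, for Adgre1 in FI3KO replicates 3-6 and for S100a9 throughout.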

Other observations

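Few genes of other immune lineages were measurable in the TRAP libraries. Il7r, the interleukin-7 receptor and the only gene tested of 9 T and NK cell markers, had a log2 fold change of -2.21 in FI3KO against WT (SE 0.632, adjusted p = 0.0156 from edgeR's test). It had at most 7.59 estimated reads in FI3KO replicates 3-6 and so passed the filter through other libraries, which favours a lower call. It was -3.90 in replicates 3-6 (adjusted p = 7.36e-05) and 0.27 in replicates 1-2 (adjusted p = 0.755). Ighm, the heavy chain of IgM, was the only gene tested of 5 B cell markers over all libraries. It was at 528 to 863 CPM in WT and 322 to 602 CPM in FI3KO TRAP libraries, against 0.118 to 0.502 CPM in the WT cultures, and it fell by 0.44 in FI3KO (adjusted p = 0.0377). Cd79b had at most 3 reads in every TRAP library. Of 2 B cell genes tested in replicates 1-2, 1 was higher in FI3KO past both cutoffs and 0 were lower, against 0.833% and 0.527% of genes. Kit, a receptor of mast cells and other cells and the only mast cell marker tested, was higher in FI3KO, at 1.51 to 2.49 CPM against 0.398 to 1.36 CPM (log2 fold change 1.52, adjusted p = 0.00180).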
